A study of Oryza sativa Indica Group with 6 samples.

Results

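Germin-like proteins are secreted proteins of the cupin family, which bind a metal ion in a barrel-shaped fold and sit in the cell wall and the space between plant cells. Some members of the wider germin family act as oxalate oxidases and others as superoxide dismutases, and both reactions yield hydrogen peroxide, a signal and a wall cross-linking agent in plant defence. In rice a row of germin-like genes on chromosome 8 is known for its association with resistance to fungal disease. The genes described here are GER2 (LOC4344839), GLP2 (LOC4344846, also named RGLP1 and RGLP2) and GER7 (LOC4334487). Together they have 4 probe sets, of 22436 probe sets that match 1 gene and of 17905 genes that have such a probe set. The probe sets were found by symbol and synonym, but the genes themselves were chosen from measured differences between the lines on these same arrays. Their levels and differences are therefore given as a description, with no test.

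The arrays were made from total RNA of rice seedlings taken 15 days after germination, and the plant part is not stated. They compare 3 T-DNA insertion lines of rice named OsPE, Osoc and Ossl, each with 2 arrays that the series text describes as biological replications. The series text calls the lines Basmati, and the organism label is Oryza sativa Indica Group. All 3 lines carry an insertion and all were grown under conditions described as optimal, so each line is compared with the others and not with an untransformed plant. The sources used here give no insertion site, construct or number of plants per array. The p-values rest on the spread between 2 arrays per line (3 residual degrees of freedom). They rest as well on a variance borrowed from probe sets of similar level (8.98 prior degrees of freedom).

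Values are signals on a linear scale, as deposited, and means carry their SD (n = 2). Differences are on the log2(signal + 16) scale, which understates changes of dim probe sets, and carry the standard error of limma's fit. The deposited values hold no detection call, so the 40th percentile of each array, which lay between 22.5 and 26.0, serves as the mark of a dim signal. All 4 probe sets passed the filter used for testing, which asks for a signal above that percentile on at least 2 arrays. GER2 passed only through the Osoc and Ossl arrays.

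The 3 genes differed between the lines in 3 different ways. GER2 was low in OsPE and high in both other lines. GLP2 was high in OsPE, intermediate in Ossl and low in Osoc. GER7 was high in Ossl, intermediate in OsPE and low in Osoc. Since the RNA came from seedling tissue of many cell types, fewer cells of a type and less RNA per cell cannot be told apart.

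**Figure D1:**
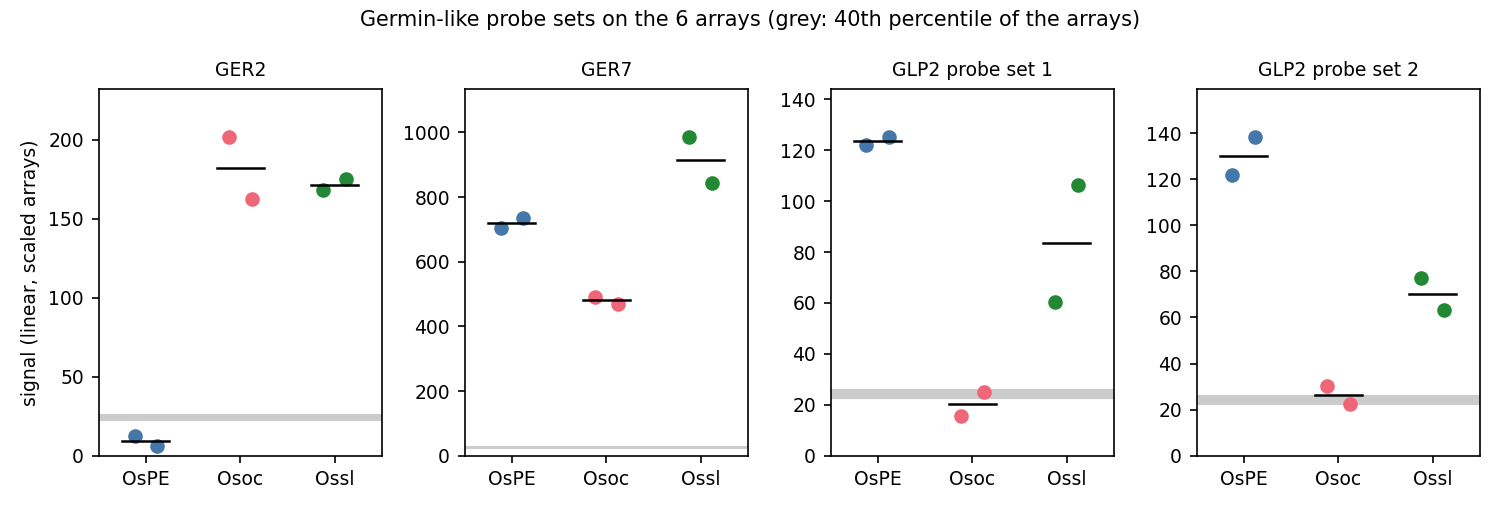
Signal of the 4 germin-like probe sets (vertical axis, linear and starting at 0, with a scale of its own in each panel) on the 2 arrays of each line (points; replicate 1 on the left), with the line mean (bar) and the range of the arrays' 40th percentiles (grey band, 22.5 to 26.0). GER2 lies below the band in OsPE, and both GLP2 probe sets lie at or near it in Osoc.

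GER2 read 12.2 and 5.9 on the 2 OsPE arrays, 201.7 and 162.6 on the Osoc arrays, and 167.8 and 175.2 on the Ossl arrays. The OsPE arrays did not overlap with those of either other line, while the Osoc and Ossl arrays did overlap. The means were 9.0 ± 4.5 in OsPE, 182.1 ± 27.6 in Osoc and 171.5 ± 5.2 in Ossl. Both OsPE signals lay below the 40th percentile of their arrays, at 0.51 and 0.248 times that percentile, so that the OsPE level has only an upper mark and no fold is given. In Osoc the signals were 7.76 and 7.23 times the percentile, and in Ossl 6.69 and 7.18 times.

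On the log2(signal + 16) scale GER2 was higher by 2.99 (SE 0.32) in Osoc than in OsPE, and the 4 pairings of single arrays gave 2.66 to 3.31. In Ossl it was higher than in OsPE by 2.92 (SE 0.32), with pairings from 2.7 to 3.13. These 2 comparisons share the OsPE arrays. Between Ossl and Osoc the difference was -0.07 (SE 0.32), and its pairings ran from -0.24 to 0.1, on both sides of 0. The size against OsPE depended on the offset: with 4 in place of 16 it was 3.87 for Osoc and 3.79 for Ossl, and with 64 it was 1.75 and 1.69.

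GLP2 was measured by 2 probe sets, both assigned to LOC4344846. A second gene that carries the name GLP2, LOC112935981, lies directly beside it in the annotation and has 0 probe sets assigned to it. Whether either probe set also reads the transcript of that neighbour was not tested, so the values below are those of the probe sets.

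The first GLP2 probe set read 122.1 and 125.3 in OsPE, 15.7 and 25.2 in Osoc, and 60.5 and 106.4 in Ossl. The second read 121.9 and 138.4 in OsPE, 30.4 and 22.6 in Osoc, and 77.0 and 63.3 in Ossl. On both probe sets the arrays of the 3 lines followed the same order without overlap, with OsPE above Ossl and Ossl above Osoc. The Ossl arrays were ordered differently by the 2 probe sets, since replicate 2 was the brighter on the first and the dimmer on the second.

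In Osoc the first GLP2 probe set had a mean of 20.4 ± 6.7 against 123.7 ± 2.3 in OsPE, a difference of -1.95 (log2, SE 0.38). The second had 26.5 ± 5.5 against 130.2 ± 11.7, a difference of -1.79 (SE 0.35). Osoc replicate 1 lay below the 40th percentile on the first probe set, and the other Osoc signals were 1.12, 1.17 and 1.0 times the percentile of their arrays. The Osoc level of GLP2 was thus close to the dim mark on both probe sets. Ossl had means of 83.4 ± 32.5 and 70.2 ± 9.7. The gap between Ossl and OsPE was -0.53 (SE 0.38) on the first probe set and -0.76 (SE 0.35) on the second. The single-array pairings for that gap ran from -0.89 to -0.17 and from -0.96 to -0.57, so OsPE was above Ossl in every pairing. On the first probe set, however, the means of these neighbouring lines lay closer together than the 2 Ossl arrays did to each other. From Osoc to Ossl the 2 probe sets differed by 1.42 (SE 0.38) and 1.02 (SE 0.35). With an offset of 64 in place of 16 the Osoc and OsPE differences became -1.15 and -1.1, and those between Ossl and Osoc 0.79 and 0.57.

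GER7 gave the brightest signals of its probe set in Ossl. It read 986.4 and 844.1 there, 705.1 and 736.0 in OsPE, and 491.1 and 469.9 in Osoc. The 3 lines did not overlap, and the Ossl arrays were further apart than those of the other lines. The means were 915.2 ± 100.6 in Ossl, 720.6 ± 21.8 in OsPE and 480.5 ± 15.0 in Osoc. All 6 signals were between 18.9 and 39.3 times the 40th percentile, so that the offset has little weight for this gene.

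For GER7 the log2 difference between Osoc and OsPE was -0.57 (SE 0.11), which is 1.48-fold higher in OsPE, with single-array pairings from -0.63 to -0.51. Ossl exceeded OsPE by 0.33 (SE 0.11), or 1.26-fold, with pairings from 0.19 to 0.48. Ossl exceeded Osoc by 0.9 (SE 0.11), or 1.87-fold, with pairings from 0.76 to 1.04. The distance from OsPE to Ossl was thus the smaller step in this order, and its lower pairing came from Ossl replicate 2.

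GER2 and GLP2 differed from OsPE in opposite directions in both other lines. In Osoc the log2 difference was 2.99 for GER2 and -1.95 and -1.79 for the GLP2 probe sets. In Ossl it was 2.92 for GER2 and -0.53 and -0.76 for GLP2. Between Osoc and OsPE the arrays did not overlap on 4 of the 4 probe sets, as they did not on 49.2% of the 39629 probe sets tested. The count was also 4 of 4 between Ossl and OsPE, where the share of all probe sets was 49.2%. It was 3 of 4 between Ossl and Osoc, where the share was 49.9%. Since the genes were chosen on these contrasts, nothing is read from the counts.

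Both genes belong to the row on chromosome 8. In the RefSeq annotation (assembly ASM3414082v1, Oryza sativa Japonica Group) this row of 10 adjacent protein-coding genes begins with GER3, GER2 and GER1 and holds GER6 as its sixth gene. It ends with the 2 genes named GLP2, of which LOC4344846 is the last. The 4 unnamed genes in between have 0 probe sets. GER7 lies on chromosome 3, away from this row.

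**Figure D2:**
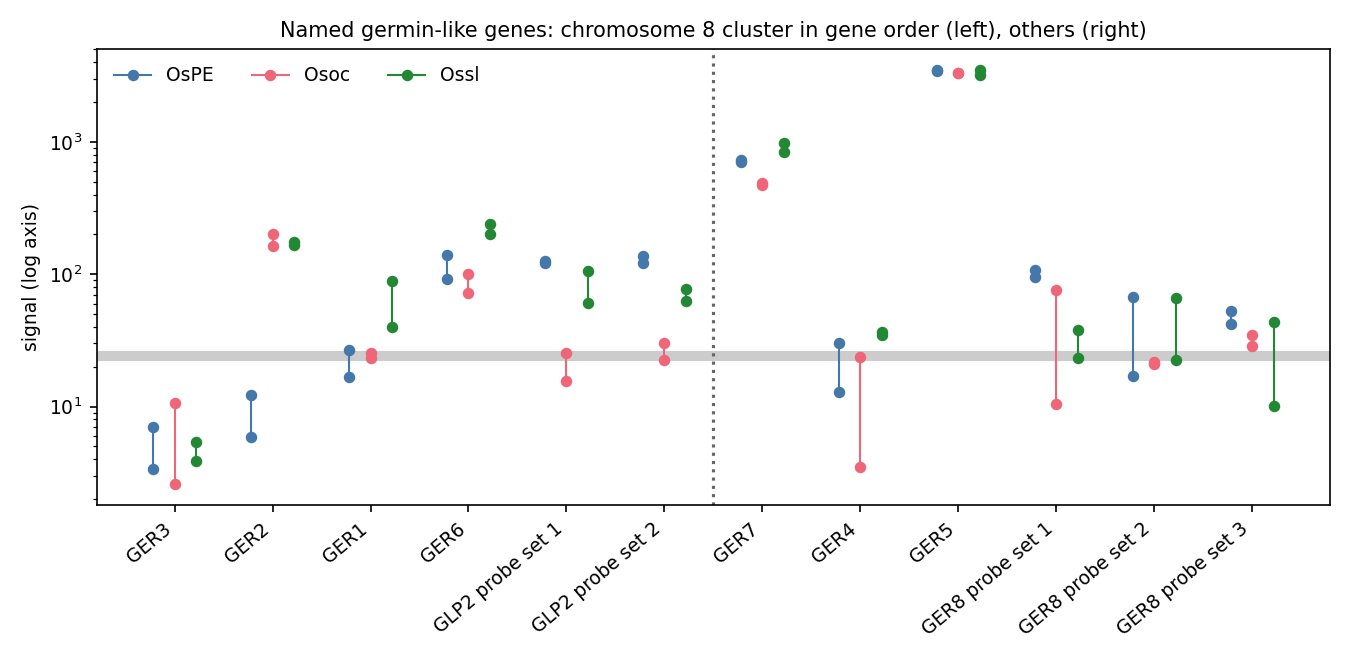
Signal (vertical log axis) of all probe sets of named germin-like genes, with the 2 arrays of a line joined by a line and the lines told apart by colour. Left of the dotted line are genes of the chromosome 8 row in their order; the grey band spans the arrays' 40th percentiles, and levels of different probe sets are not comparable. GER6 is highest in Ossl (200.7 and 238.8), GER3 lies below the band on all 6 arrays, and GER5 varies little between 3206.8 and 3502.3.

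The other named germin-like genes are GER1, GER3, GER4, GER5, GER6 and GER8, which were read in the fit across all probe sets. They are what was left of the named family after genes were chosen by their differences on these arrays. They may differ less for that reason, so their shares beside those of all genes are a description. GER3 was below the 40th percentile on all 6 arrays and was not tested. Among the 5 others, 1 rose in Ossl against Osoc, which was GER6, and 4 did not pass. This share of 20% compares with 17.1% of all genes called in either direction in that comparison, a share near the background. The median log2 difference of the 5 was -0.36 in Osoc against OsPE, 0.5 in Ossl against OsPE and 0.89 in Ossl against Osoc, where the medians over all probe sets tested were -0.03, -0.02 and 0.0. The medians of 0.5 and 0.89 are the values of GER4, a dim probe set that did not pass (limma adjusted p = 0.697 and 0.399).

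GER6 read 91.6 and 140.5 in OsPE, 99.6 and 72.5 in Osoc, and 200.7 and 238.8 in Ossl. The Ossl arrays were above all others, and those of OsPE and Osoc overlapped. GER6 was higher in Ossl than in Osoc by 1.22 (log2, SE 0.28; limma adjusted p = 0.0149), at 219.8 ± 26.9 against 86.0 ± 19.2. Over the 15 alternatives its adjusted p ran from 0.00957 to 0.124, and the call held in 11 of them. It ended with no filter (adjusted p = 0.0501), without the variance trend (adjusted p = 0.124), and when Osoc replicate 2 or Ossl replicate 2 was left out. Against OsPE the value was 0.86 (SE 0.28; limma adjusted p = 0.0936).

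In both comparisons with OsPE, 0 of the 5 passed with limma, where 11.9% of all genes did so for Osoc and 11.7% for Ossl. At an unadjusted p below 0.05 the counts were 1 for Osoc and 2 for Ossl. Since these 5 genes were left over from a choice made on the same contrasts, nothing is read from the counts. GER8, on its representative probe set, read 107.5 and 95.8 in OsPE, 10.4 and 75.7 in Osoc, and 37.8 and 23.2 in Ossl. Its difference from OsPE was -1.26 (SE 0.54; limma adjusted p = 0.224) in Osoc and -1.36 (SE 0.54; limma adjusted p = 0.174) in Ossl, and its other 2 probe sets did not pass in any comparison. The suffix of each GER8 probe set marks probes shared with other transcripts, so its values may not be those of GER8 alone. GER1 read 39.8 and 89.3 in Ossl and at most 26.8 in the other lines (1.04 against OsPE, limma adjusted p = 0.263). GER4 stayed between 3.5 and 36.5. GER5, also named GLP1, differed by -0.07, -0.05 and 0.01 in the 3 comparisons, with limma adjusted p = 0.679, 0.732 and 0.947.

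**Figure D3:**
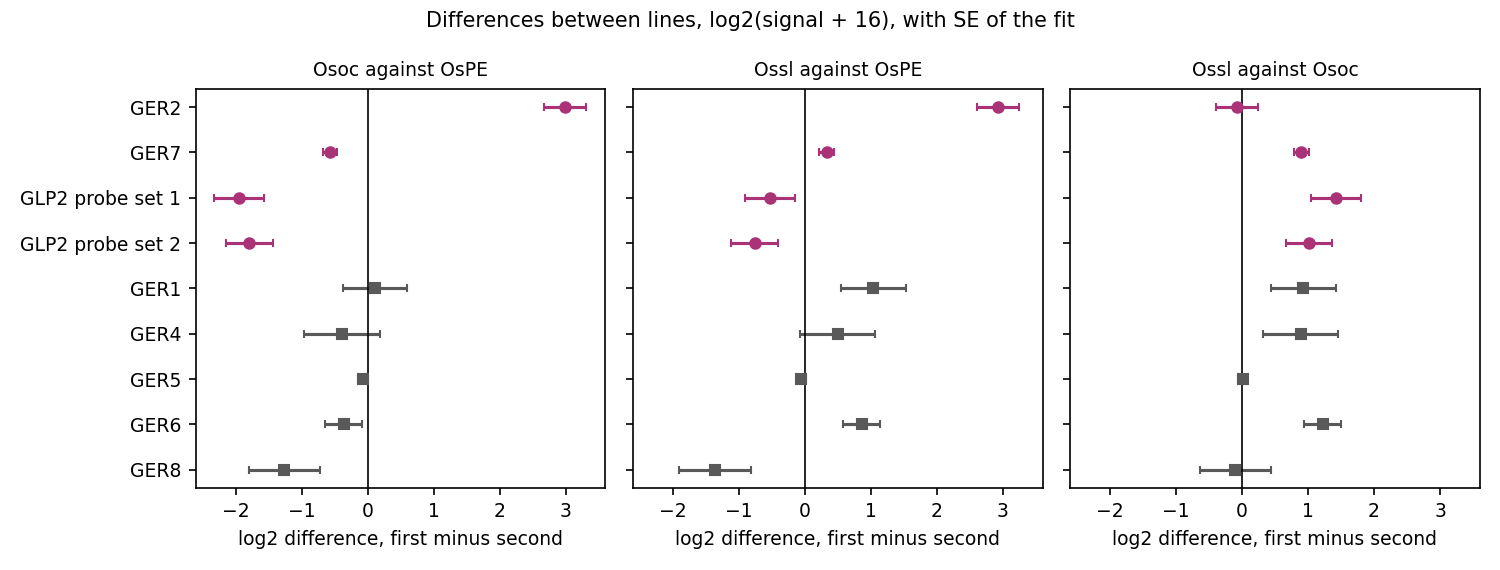
Log2 differences between lines (horizontal axis, first line minus second, log2(signal + 16)) with the standard error of the fit, for the 4 probe sets of GER2, GER7 and GLP2 (circles) and for the tested probe set of highest mean of the other germin-like genes (squares). GER2 lies to the right and GLP2 to the left of 0 in both comparisons with OsPE, and GER6 lies at 1.22 in Ossl against Osoc.

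To describe each pattern further, named genes were ranked by Pearson's r with the brightest probe set of each germin-like gene over the 6 arrays, among 188 genes whose line means spanned at least 1 (log2). The r values are a description, since the 6 points are 3 lines with 2 arrays each. Genes with the same line order and a similar spacing of the line means score high. For GER2 the 5 genes were Pir7b (r = 0.991), the lectin gene ML, also named salT (0.99), the laccase gene LAC19 (0.987), G1L2 (0.987) and the tiller angle gene TAC1 (0.983). Pir7b had means of 222.3 ± 43.7 in OsPE, 1538.0 ± 25.8 in Osoc and 1148.6 ± 24.1 in Ossl. ML had 87.7 ± 12.7, 727.3 ± 2.5 and 694.3 ± 14.1. Both were lower in OsPE than in the other lines, as GER2 was, at signals well above the dim mark in OsPE. TAC1 had a mean of 6.8 ± 1.5 in OsPE, and it and LAC19 were below the 40th percentile there, as GER2 was.

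The 5 genes with the pattern most like GER7 were the transcription factor genes OsWRKY62 (r = 0.983) and OsWRKY76 (0.973), CAD6, named as a cinnamyl alcohol dehydrogenase (0.975), and the calmodulin-like genes CML4 and CML5 (0.97 each). OsWRKY62 had means of 292.0 ± 31.7 in OsPE, 127.7 ± 2.8 in Osoc and 477.2 ± 4.5 in Ossl. CML4 had 2967.2 ± 208.4, 1740.8 ± 129.3 and 5087.6 ± 320.5. Each of the 5 had Ossl above OsPE and OsPE above Osoc, as GER7 did.

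For the second GLP2 probe set the closest gene was DL (r = 0.987), the DROOPING LEAF gene that directs midrib formation in rice leaves. It had means of 71.1 ± 6.4 in OsPE, 26.0 ± 0.5 in Osoc and 51.1 ± 1.3 in Ossl. The next values were lower, with GL2-3, also named Roc3, at 0.903, AO-1 and the jasmonate repressor gene JAZ9 at 0.897 each, and the homeobox gene Hox11 at 0.883. GL2-3 and Hox11 had Osoc means of 4.5 ± 0.1 and 4.2 ± 0.4, below the 40th percentile.

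**Figure D4:**
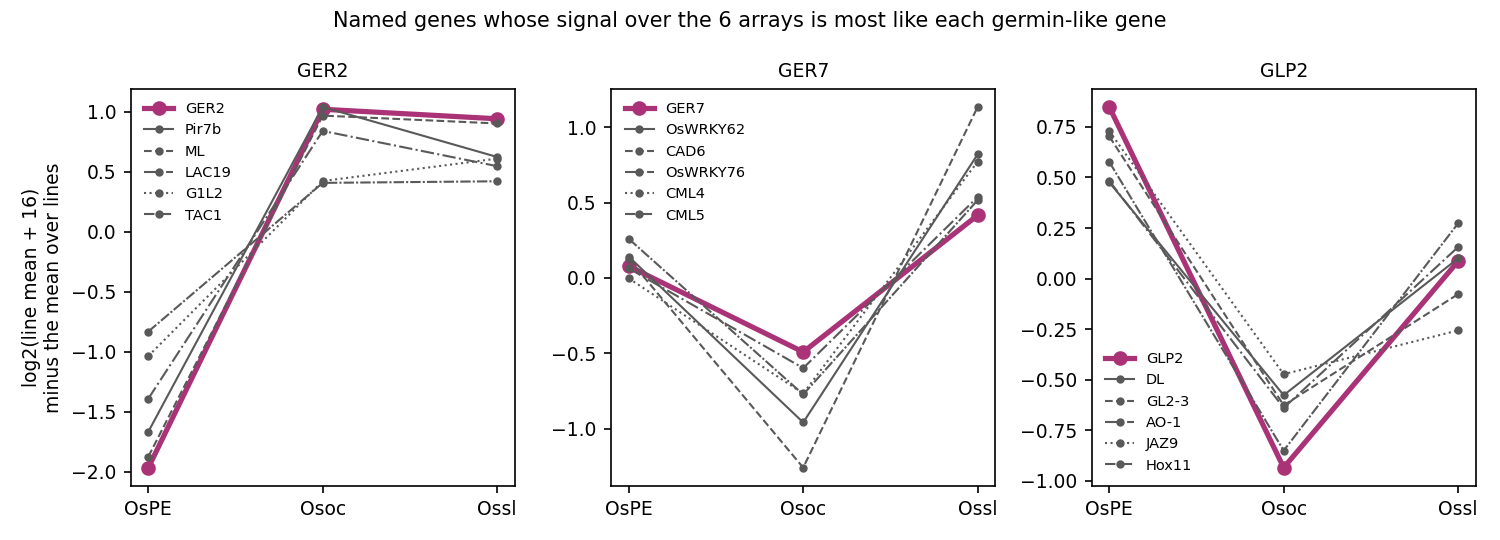
Line means as log2(mean signal + 16) minus the mean over the 3 lines (vertical axis) for GER2, GER7 and the second GLP2 probe set (thick) and for the 5 named genes with the highest Pearson's r to each over the 6 arrays (thin). The 3 panels show 3 different patterns over the lines. The thin genes beside GER7 span more than its 0.9 because only genes spanning at least 1 (log2) were ranked.

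Hydrogen peroxide, the product linked to germin activity, is also made or removed by other enzymes. Of 17 genes for superoxide dismutases, catalases, ascorbate peroxidases, an NADPH oxidase and ascorbate recycling, 2 rose and 4 fell in Osoc against OsPE, which is 35.3% against 11.9% of all genes. In Ossl against OsPE 4 rose and 3 fell (41.2% against 11.7%), and in Ossl against Osoc 3 rose and 4 fell (41.2% against 17.1%). The list was chosen with earlier results of these data known, and its probe sets were bright. Their median signals ran from 794.8 to 26499.2, where the array medians were 37.4 to 42.8. Their standard errors were 0.05 to 0.1, so that a difference as small as 0.19 passed (APX1 in Ossl against OsPE). Genes of like level were not compared, so no enrichment is read from the shares. The list had no common direction, with medians of 0.02, 0.04 and -0.02 (log2). With median centring 2, 2 and 3 of the 17 passed, and without the variance trend 0, 0 and 0.

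RBOHB, an NADPH oxidase that makes superoxide, fell from 7402.2 ± 186.2 in OsPE to 4961.3 ± 47.2 in Ossl (-0.58, limma adjusted p = 4.42e-05) and to 5894.5 ± 90.7 in Osoc (-0.33, limma adjusted p = 0.00406). The ascorbate peroxidase gene APX7 rose in both lines against OsPE, by 0.41 in Osoc and 0.34 in Ossl (limma adjusted p = 0.00176 and 0.00486). APX8 fell in both, by 0.23 and 0.26 on the log2 scale (limma adjusted p = 0.0285 and 0.0137). The catalase gene CATA rose by 0.24 in Osoc (limma adjusted p = 0.0159) on 1 of its 3 probe sets. The catalase gene CATB rose in Ossl by 0.31 against OsPE and 0.41 against Osoc (limma adjusted p = 0.00356 and 0.000343), the latter on 1 of its 5 probe sets. The other CATB probe sets gave 0.26, 0.11, 0.16 and -0.36 against OsPE, and 0.1, 0.32, -0.08 and -0.53 against Osoc. The suffixes of the CATA probe set that passed and of the CATB probe set of highest mean mark probes shared with other transcripts. In Ossl against Osoc the superoxide dismutase gene SODCC2 rose by 0.26, APX5 fell by 0.51 and MDHAR2 fell by 0.28 on the log2 scale (limma adjusted p = 0.0118, 0.00679 and 0.013). Of the 15 alternatives, the calls against OsPE held in 14 (Osoc) and 13 (Ossl) for APX7, in 13 and 14 for RBOHB and in 8 and 11 for APX8. The CATA call held in 9 of the 15, and the CATB call in 12 against OsPE and 14 against Osoc. In Ossl against Osoc the calls held in 12 for SODCC2, 13 for APX5 and 11 for MDHAR2.

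**Figure D5:**
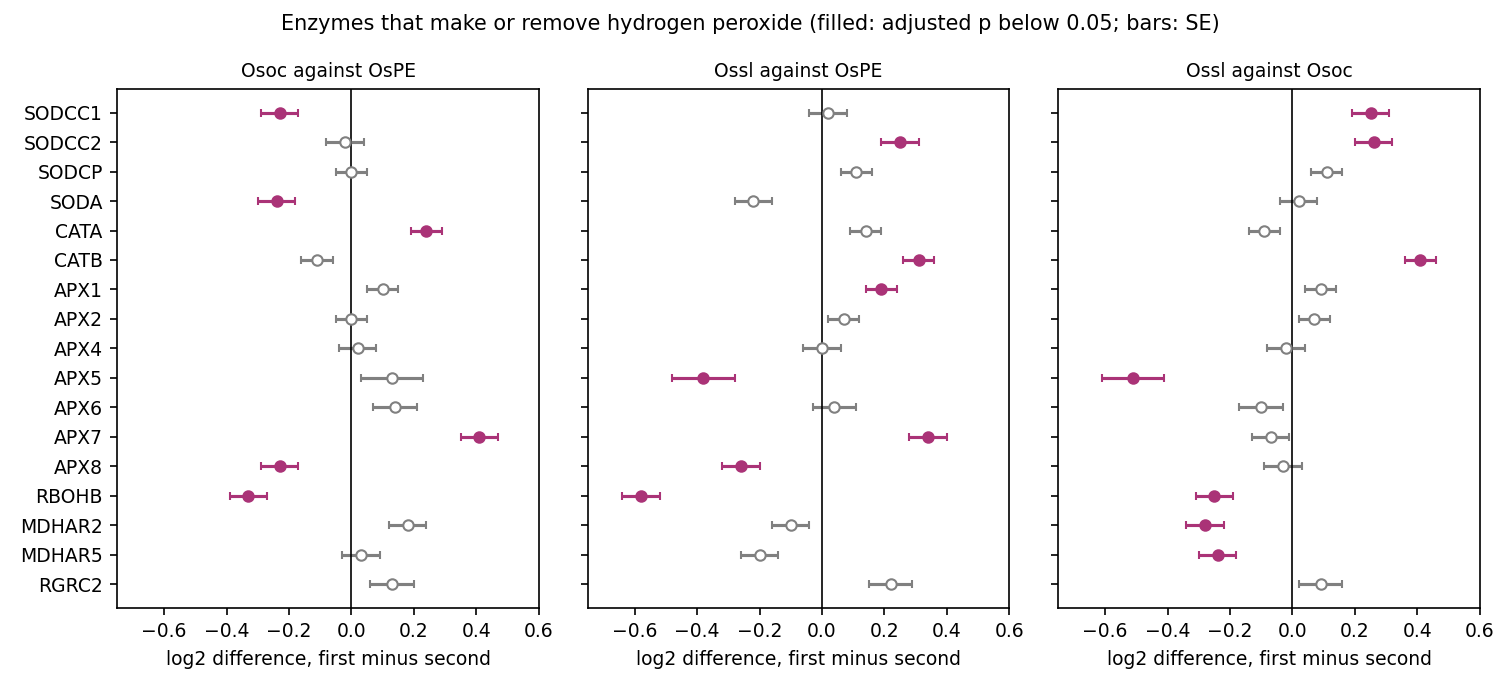
Log2 differences between lines (horizontal axis, first line minus second) with the standard error of the fit for the 17 genes of the hydrogen peroxide list. These are genes for superoxide dismutases, catalases, ascorbate peroxidases, an NADPH oxidase, which makes superoxide, and ascorbate recycling. Filled circles passed at adjusted p below 0.05, and RBOHB lies left of 0 in all 3 comparisons, at -0.33, -0.58 and -0.25.

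Over the whole array, 7.46% of the 39629 probe sets tested differed between Osoc and OsPE, 7.92% between Ossl and OsPE and 11.2% between Ossl and Osoc. The labelled tissue was checked with fixed markers. On their brightest probe sets the leaf genes CAB2R, RBCS and RCA read from 27352.1 to 62768.0, while RBCS1 read 30.2 to 49.2, near the dim mark. The root silicon channel gene LSI1 read 1410.5 to 1673.3. The root genes LSI2, IRT1 and IRT2 read at most 45.0, and the grain storage genes GLUA1 and RP6 at most 28.5, but GLUA2 read 1086.6 to 1391.9 and RAG2 71.4 to 151.1 on their brightest probe sets. Of the tested markers 1 of 4 for leaf (CAB2R, higher in Ossl than in Osoc), 0 of 3 for root and 0 of 2 for grain passed with limma in at least 1 comparison. At an unadjusted p below 0.05, up to 2, 1 and 1 of them did so in a comparison. The poly-A control RNAs added before labelling were lower on the Ossl arrays than on the others, by a mean log2 of -1.24 for the 5' probe sets and -0.52 for the 3' probe sets. The ratio of the 3' to the 5' probe set could be read on all 6 arrays for 5 control transcripts. The first actin control gave 15.4 and 16.2 in OsPE, 21.5 and 21.6 in Osoc, and 39.3 and 18.0 in Ossl, and the second gave 4.37 to 10.9 over the 6 arrays. Ubiquitin gave 1.1 to 1.21, cyclophilin 1.69 to 2.65 and the GAPDH control 7.62 to 9.26. The part of these array measures in the germin-like values was not tested.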

How the data were processed

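Per the labels, biotin-labelled cRNA was prepared from total RNA for an Affymetrix rice array, and GCOS 1.2 is named in the submitters' processing notes. The authors deposited a linear-scale signal (intensity) for each probe set on each array. The sources used here do not name the signal algorithm. With 2% of probe sets trimmed at each end, the mean was 500.1 on every array, and this scaling was kept. The number of arrays limits the precision.

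After removal of 123 control probe sets, 57258 remained and 39629 passed the filter (above the array's 40th percentile on at least 2 of 6 arrays). All 6 arrays entered a single limma fit (version 3.58.1, R 4.3.3) of log2(signal + 16) with empirical Bayes variances that follow a trend with level. It had 3 residual and 8.98 prior degrees of freedom. Tests were two-sided, with Benjamini-Hochberg adjustment over all tested probe sets and a threshold of 0.05. The procedure was tested on simulated data. In those data probe sets of like level had equal noise, so genes that vary more than others of their level were not covered. Figures were drawn with Python 3.11.15 and matplotlib 3.10.9.

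Probe sets were named through the platform's gene table and RefSeq synonyms: 22436 matched 1 gene, 95 several and 34850 none. A gene stands for its tested probe set of highest mean. The germin-like family had been planned from protein similarity, but protein sequences were not used here, so it was taken by name. The members and lists were chosen with earlier results of these data known. The genes named are all members, family genes past the threshold (up to 5 per comparison and direction), up to 4 genes of each list per comparison by lowest adjusted p, and the 5 genes most similar to each member. Family genes that did not pass, RBOHB in Ossl against Osoc and the tissue markers with their levels were named after their values were seen.

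The alternatives were offsets of 4 and 64, median centring, quantile normalization, a stricter filter and none, constant prior variance, robust weights, a replicate block, and leaving out each array.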

Additional observations from a re-analysis of the deposited data

How the results depend on the processing

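For GER2, GER7 and GLP2, 11 of the 12 differences kept their sign in all 10 alternatives read for them. The exception was GER2 in Ossl against Osoc, near 0 throughout (-0.22 to 0.07), which turned to 0.07 without Osoc replicate 1. Leaving out an array of the line not compared could not change a difference. For the other 11 the arrays of the compared lines did not overlap, so another offset or the loss of 1 array could not turn the sign. Only quantile normalization and median centring could have done so. GLP2 ranged from -2.41 to -1.15 on the first probe set and from -2.15 to -1.1 on the second in Osoc against OsPE, with offsets of 4 and 64 at the ends. With a filter that asks for all 6 arrays, 2 of the 4 probe sets passed, those of GER7 and the second of GLP2. Dim signals thus limit GER2 in OsPE and GLP2 in Osoc.

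The reported fit called 2955 probe sets for Osoc and 3138 for Ossl, each against OsPE, and 4441 between Ossl and Osoc. Without the variance trend these counts were 28, 382 and 402. Leaving out 1 array gave 1201 to 3278, 1495 to 2781 and 2342 to 3787. The other germin-like genes called in Ossl against Osoc numbered 1 in the reported fit, 0 with no filter, 0 without the variance trend, and 0 to 1 with 1 array left out. The hydrogen peroxide enzymes, whose alternatives were added after seeing the data, numbered 6, 7 and 7 in the 3 comparisons. They numbered 2, 2 and 3 with median centring and 0, 0 and 0 without the variance trend. With no filter, 2 passed in Osoc against OsPE and 3 in Ossl against OsPE. With 1 array left out they ranged from 1 to 6, 2 to 5 and 1 to 6. The causes were not tested.

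Over all tested probe sets, deviations of the same-numbered arrays from their line means correlated at 0 (OsPE and Osoc), 0.001 (OsPE and Ossl) and 0.014 (Osoc and Ossl). No broad pattern over the probe sets common to the same-numbered arrays was thus seen. A uniform shift of all probe sets would not alter such a correlation and could not be seen. A shared effect on a smaller set of genes was not tested. With the replicate block 2958, 3132 and 4423 probe sets were called, 0, 0 and 1 of the germin-like genes, and 6, 6 and 7 of the enzymes.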

Other observations

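Genes next to the germin-like genes in the annotation were read after their values were seen, with a window of 10 protein-coding genes on each side and named germin-like genes left out. Around GER7, 13 of 20 neighbours were tested, and 3 were higher in Ossl than in Osoc, where 17.1% of all genes were called in either direction. These were LOC4334477 (1.63, log2), LOC4334495 (0.58) and LOC4334492 (0.44), while LOC4334486, directly beside GER7, differed by -0.12. Against OsPE, 0 of the 13 passed with limma in either line, and at an unadjusted p below 0.05 there were 3 in Osoc and 1 in Ossl. Around GER2, 5 of 15 neighbours were tested. Of these 5, 1 passed, LOC4344832, also named GL2-1 and ROC1, by -0.32 in Osoc and -0.3 in Ossl against OsPE, where 11.9% and 11.7% of all genes were called. Around LOC4344846, 5 of 15 were tested and 1 passed, LOC4344854. It was higher in Osoc than in OsPE by 0.31, where 11.9% of all genes were called, and lower in Ossl than in Osoc (-0.45), where 17.1% were. LOC4344847, directly beside LOC4344846, differed by 0.06, 0.05 and -0.02 in the 3 comparisons.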
